A study of Mus musculus with 6 samples.

Results

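Cytochrome P450 families 1, 2 and 4 are the membrane-bound monooxygenases that carry much of the liver's oxidation of drugs, toxicants, steroids and fatty acids. The genes described here were chosen by a rule on their symbols, with earlier results of these data known. Every probe set with exactly 1 gene symbol of the Cyp1, Cyp2 or Cyp4 type was taken, and Cyp2c70 was left out. Where a gene had several probe sets, the brightest on average over these arrays was kept. This gave 65 genes of 22180 measured, 3 in family 1, 47 in family 2 and 15 in family 4. Cyp2c67, Cyp4a10 and Cyp4a32 lie on probe sets with several symbols in the annotation used here, and Cyp2j7 has no probe set of its own there, so none of these 4 is described.

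The samples were primary hepatocytes of adult male wild-type C57Bl/6 mice in serum-free William's medium. One group received GW4064 at 2 µM for 4 h, and the other DMSO, the solvent. GW4064 is a man-made ligand that activates FXR, the nuclear receptor for bile acids encoded by Nr1h4. Each group has 3 arrays, numbered 1 to 3 in the labels, and the study names 3 independent preparations without saying that a number marks a preparation. Levels are log2 intensities normalized by the authors with RMA on 1-colour Affymetrix arrays, and they ran from 0.94 to 13.07. Where nothing says which animals the cells came from, p-values measure only the spread between these arrays.

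A P450 of these families binds oxygen at a heme iron and receives electrons from a reductase, Por, and in part from cytochrome b5. Most family 1 genes are induced through the aryl hydrocarbon receptor AHR, several Cyp2b and Cyp2c genes through the xenobiotic receptors CAR (Nr1i3) and PXR (Nr1i2), and Cyp4a genes through the fatty acid sensor PPARalpha (Ppara). Family 2 holds most enzymes of drug and steroid oxidation and the epoxygenases of arachidonic acid, and family 4 the omega-hydroxylases of fatty acids and eicosanoids. In the liver lobule, Cyp2e1, Cyp1a2 and Cyp2c29 are textbook genes of the hepatocytes near the central vein, and Cyp2f2 of those near the portal tract.

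The treatment itself was visible. Abcb11, the bile salt export pump and a direct FXR target, had log2 levels of 8.14, 7.81 and 7.96 with GW4064, against 5.09, 4.83 and 4.74 with DMSO, a change of 3.08 (SE 0.13, limma adjusted p = 3.70e-05). The hepatocyte markers Alb, Apoa1, Ttr, Tat, Cps1 and Serpina1a had a mean level of 10.45 to 10.56 over the GW4064 arrays and 10.57 to 10.75 over the DMSO arrays. All 6 had a change below 0, with a median of -0.14 on the log2 scale, and none was called for the treatment. Markers of Kupffer cells averaged 4.66 to 4.97 with GW4064 and 4.84 to 4.96 with DMSO, and the averages for endothelial, stellate, cholangiocyte and lymphocyte markers lay between 2.62 and 5.22 over both groups. Among all these markers, the macrophage gene Cd68 and the hepatocyte gene Tat differed between replicate numbers, as described below.

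The P450 genes covered most of the array's range of levels. In DMSO their means lay between 1.56 and 10.45, 28 of 65 were above the median of all genes, and 4 were in the top 10% of genes. At the dim end, 20 members had a mean over all arrays below 2.91, the 25th percentile of gene means. Probe sets bind with different strength, so these levels place a gene on the array but do not rank the amounts of different mRNAs. In bulk RNA, fewer cells with a transcript and less transcript per cell cannot be told apart.

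In family 1, Cyp1a2, a constitutive liver enzyme that oxidizes aromatic amines, had levels of 5.65, 5.89 and 5.20 with GW4064, against 5.85, 5.78 and 4.75 with DMSO. Cyp1a1, the most inducible AHR target, lay below the array median in DMSO, at 3.59, 3.64 and 3.79, with 3.80, 4.42 and 3.93 in the GW4064 arrays. The GW4064 arrays of Cyp1a1 thus all lay above its DMSO arrays, the second of them furthest. Cyp1b1, a mainly extrahepatic AHR target, averaged 2.07 ± 0.07 with GW4064 and 2.13 ± 0.21 with DMSO (SD, n = 3 each), near the low end of the arrays.

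Among the Cyp2a genes, which oxidize steroids and small toxicants, Cyp2a12 averaged 10.39 ± 0.20 with GW4064 and 10.45 ± 0.27 with DMSO. Cyp2a5, the coumarin hydroxylase, stood at 2.73, 2.16 and 2.63 with GW4064, against 2.07, 2.11 and 2.27 with DMSO. Those groups overlap, since the second GW4064 array lies inside the DMSO range. In the Cyp2b subfamily the CAR target Cyp2b10 averaged 9.68 ± 0.29 with GW4064 and 9.95 ± 0.25 with DMSO. The other 4 Cyp2b genes had DMSO means of 2.09 to 2.94. They include the female-biased Cyp2b9, with 2.94 ± 0.28 in GW4064 and 2.94 ± 0.04 in DMSO, and Cyp2b13, with 2.76 ± 0.11 in GW4064 and 2.57 ± 0.11 in DMSO. The DMSO means of the 13 Cyp2c genes spanned 1.67 to 6.93, with 4 of them above the median of all genes and 4 under the 25th percentile. Those of the 9 Cyp2d genes spanned 1.56 to 8.28, with 5 above the median. Cyp2d26 averaged 8.21 ± 0.50 with GW4064 and 8.28 ± 0.31 with DMSO, and Cyp2d22 averaged 7.31 ± 0.25 with GW4064 and 7.36 ± 0.10 with DMSO.

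Of the single-gene subfamilies, Cyp2e1, which oxidizes ethanol and acetaminophen, averaged 7.44 ± 0.73 with GW4064 and 7.43 ± 0.65 with DMSO. Cyp2f2, which activates naphthalene, averaged 7.40 ± 0.76 with GW4064 and 7.64 ± 0.58 with DMSO. Cyp2r1, a vitamin D hydroxylase, and Cyp2u1, a hydroxylase of long-chain fatty acids, had DMSO means of 6.20 and 5.56. Cyp2s1 and Cyp2w1, better known outside the liver, had 3.60 and 3.95, the olfactory gene Cyp2g1 had 2.47, and Cyp2ab1 and Cyp2t4 had 2.37 and 2.85. The 7 Cyp2j genes, among them arachidonic acid epoxygenases, ranged from 2.39 to 7.21, where the upper value is that of Cyp2j6.

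In family 4, Cyp4v3, whose human counterpart CYP4V2 is mutated in a retinal dystrophy, averaged 9.13 ± 0.13 with GW4064 and 9.24 ± 0.05 with DMSO. The PPARalpha target Cyp4a14 averaged 2.94 ± 0.22 with GW4064 and 3.08 ± 0.14 with DMSO, and Cyp4a31 averaged 3.89 ± 0.14 with GW4064 and 3.69 ± 0.41 with DMSO. The 3 Cyp4a genes thus all had DMSO means below the median of all genes. Cyp4f13 and the leukotriene B hydroxylase gene Cyp4f14 were the named members of the 9 Cyp4f genes, with DMSO means of 7.69 and 4.40 within a subfamily range of 1.91 to 7.69. Cyp4b1, a lung-enriched enzyme, had 5.30, and Cyp4x1, an orphan enzyme best known from brain, 4.39.

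**Figure D1:**
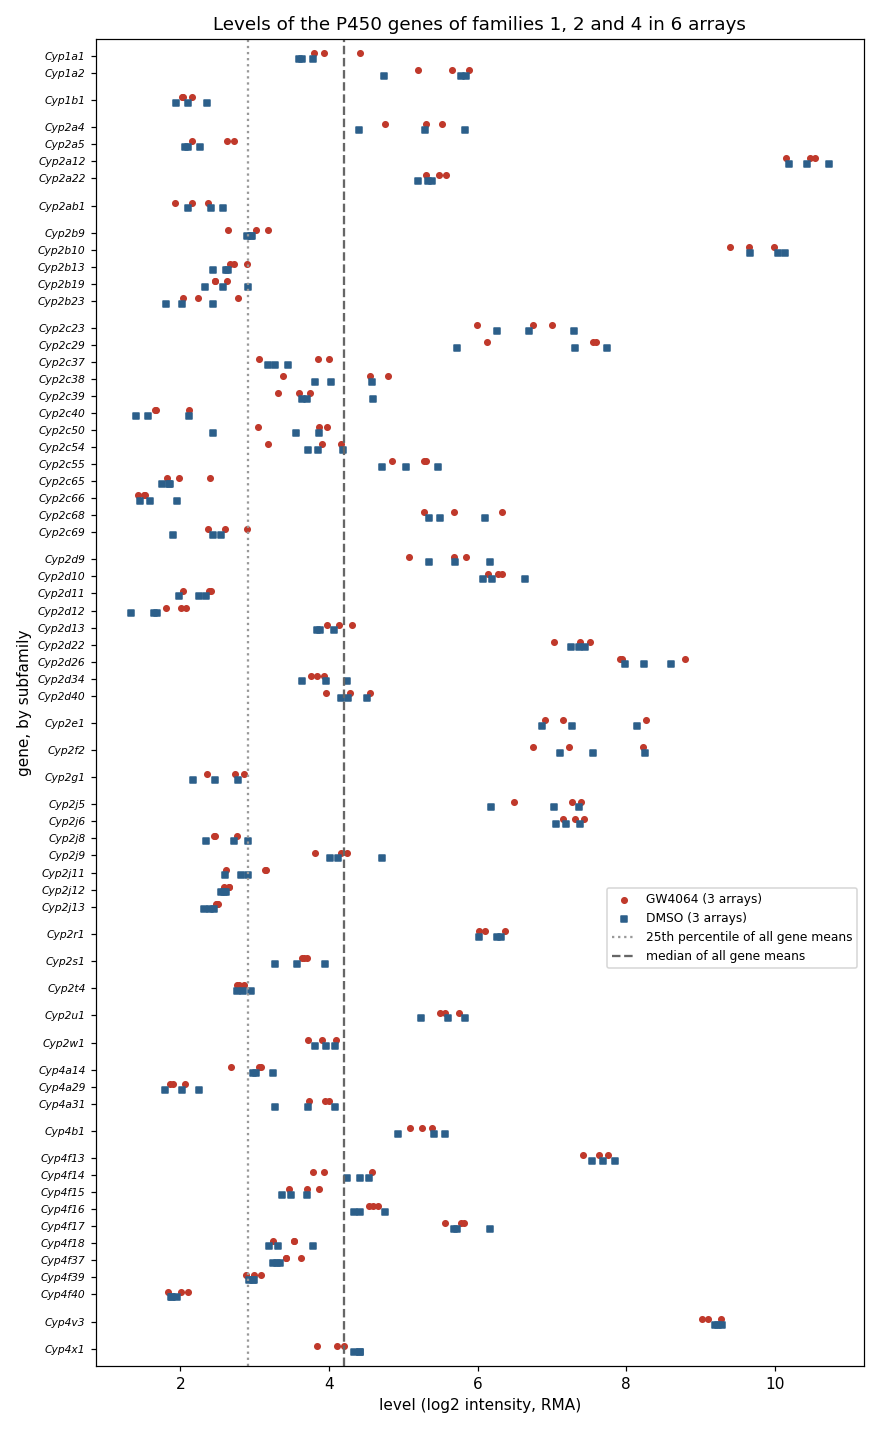
Level of each of the 65 P450 genes (log2 intensity, RMA) in the 3 GW4064 arrays (red circles, upper in each row) and the 3 DMSO arrays (blue squares, lower), grouped by subfamily. The dotted and dashed lines are the 25th percentile (2.91) and the median (4.20) of all gene means, and the red and blue points of most genes overlap.

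No P450 gene of families 1, 2 or 4 was called for GW4064. Of the 65 members 0 had a limma adjusted p under 0.05, where 0.0496% of all genes were called (11 genes, all of them raised), and the smallest adjusted p of a member was 0.745. The count was also 0 with the replicate number as a block, where 0.0812% of all genes were called and the smallest adjusted p of a member was 0.363. Members' changes lay between -0.43 and 0.41 on the log2 scale, with a median of 0.02 against -0.02 over all genes. Of the members, 36 (55.4%) had a change above 0, beside 44.6% of all genes.

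At an unadjusted p under 0.05 the count was 4 members, 3 higher and 1 lower. That is 6.15% of them, beside 5.66% of all genes, so this count is near the background. By direction the shares of all genes were 2.6% higher and 3.06% lower. The highest change was that of Cyp2d12, with 1.81, 2.08 and 2.01 in GW4064 and 1.65, 1.34 and 1.68 in DMSO (log2 change 0.41, SE 0.12, limma adjusted p = 0.745). Its groups did not overlap, but its DMSO mean exceeded that of only 0.717% of all genes, at the floor of the arrays. For Cyp1a1 the pairs differed by 0.21, 0.78 and 0.14, which gave a mean log2 change of 0.37 (SE 0.16, limma adjusted p = 0.863). For Cyp2a5 they differed by 0.66, 0.05 and 0.36, with a mean of 0.36 (SE 0.15, limma adjusted p = 0.864). The DMSO mean of Cyp2a5 was also low, at percentile 9.48 of all genes. The difference was largest in pair 2 for Cyp1a1 and in pair 1 for Cyp2a5. The change of Cyp1a1 was 0.19 without GW4064 replicate 2 and 0.17 without pair 2, and that of Cyp2a5 was 0.20 without pair 1.

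Cyp4x1 was the lower one of the 4. Its levels were 3.85, 4.20 and 4.11 with GW4064, against 4.33, 4.42 and 4.42 with DMSO, a log2 change of -0.34 (SE 0.11, limma adjusted p = 0.776). The groups did not overlap, and every pair was lower with GW4064, by between -0.49 and -0.22. With the replicate block it had the smallest p of all members (adjusted p = 0.363). The block raised the count at an unadjusted p under 0.05 to 9 members (13.8%), 5 higher and 4 lower, beside 9.13% of all genes (4.01% higher and 5.12% lower). The additional members were Cyp2c50 and Cyp2c69 among the higher and Cyp2ab1, Cyp2b10 and Cyp2c39 among the lower, of which Cyp2c50, Cyp2c69 and Cyp2c39 are named after their values were seen. Cyp2b10 was lower in all pairs, by -0.15, -0.39 and -0.27 (log2 change -0.27, SE 0.17 without and 0.09 with the block, adjusted p = 0.961 and 0.449). Its change was -0.13 without GW4064 replicate 3 and -0.43 without GW4064 replicate 1.

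Separation of the groups was no more frequent than over the whole array. The groups did not overlap for 6 members, 5 of them higher with GW4064 and 1 lower, which is 9.23% beside 10.8% of all genes (4.58% higher and 6.19% lower). They were Cyp1a1, Cyp2b13, Cyp2d12, Cyp2j13 and Cyp4f37 on the higher side and Cyp4x1 on the lower, of which Cyp2j13 and Cyp4f37 are named after their values were seen. All 3 pairs were higher with GW4064 for 15 members (23.1%), beside 12.6% of all genes, and all 3 were lower for 8 members (12.3%), beside 18.6%. More members were thus higher than lower in pair signs, in group separation and at an unadjusted p, but none was called. These counts come from the same arrays and share genes, with Cyp1a1 and Cyp2d12 in each, so they do not add to one another. Of the members with a mean at or above the median of all genes, 11 of 27 had a change above 0. From the 25th percentile to the median 12 of 18 did, and under the 25th percentile 13 of 20. Changes above 0 were thus the majority only in the members below the median of all genes. From the dimmest class upward, the members' median changes were 0.0955, 0.0479 and -0.0481. Those of all genes were 0.00404, -0.00451 and -0.0287, so the all-gene median was also lowest in the brightest class. The shares of all genes above 0 by class are not given here.

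Subfamily by subfamily, the median log2 change stayed between -0.34 and 0.25. It was 0.12 over the 13 Cyp2c genes, 9 of them above 0, and -0.05 over the 9 Cyp2d genes, 3 of them above 0. For the 5 Cyp2b genes it was 0.00, for the 4 Cyp2a genes 0.09, for the 7 Cyp2j genes 0.09 and for the 9 Cyp4f genes 0.02. Over the 3 Cyp4a genes it was -0.08. No subfamily of more than 2 genes had all its members on one side of 0.

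**Figure D2:**
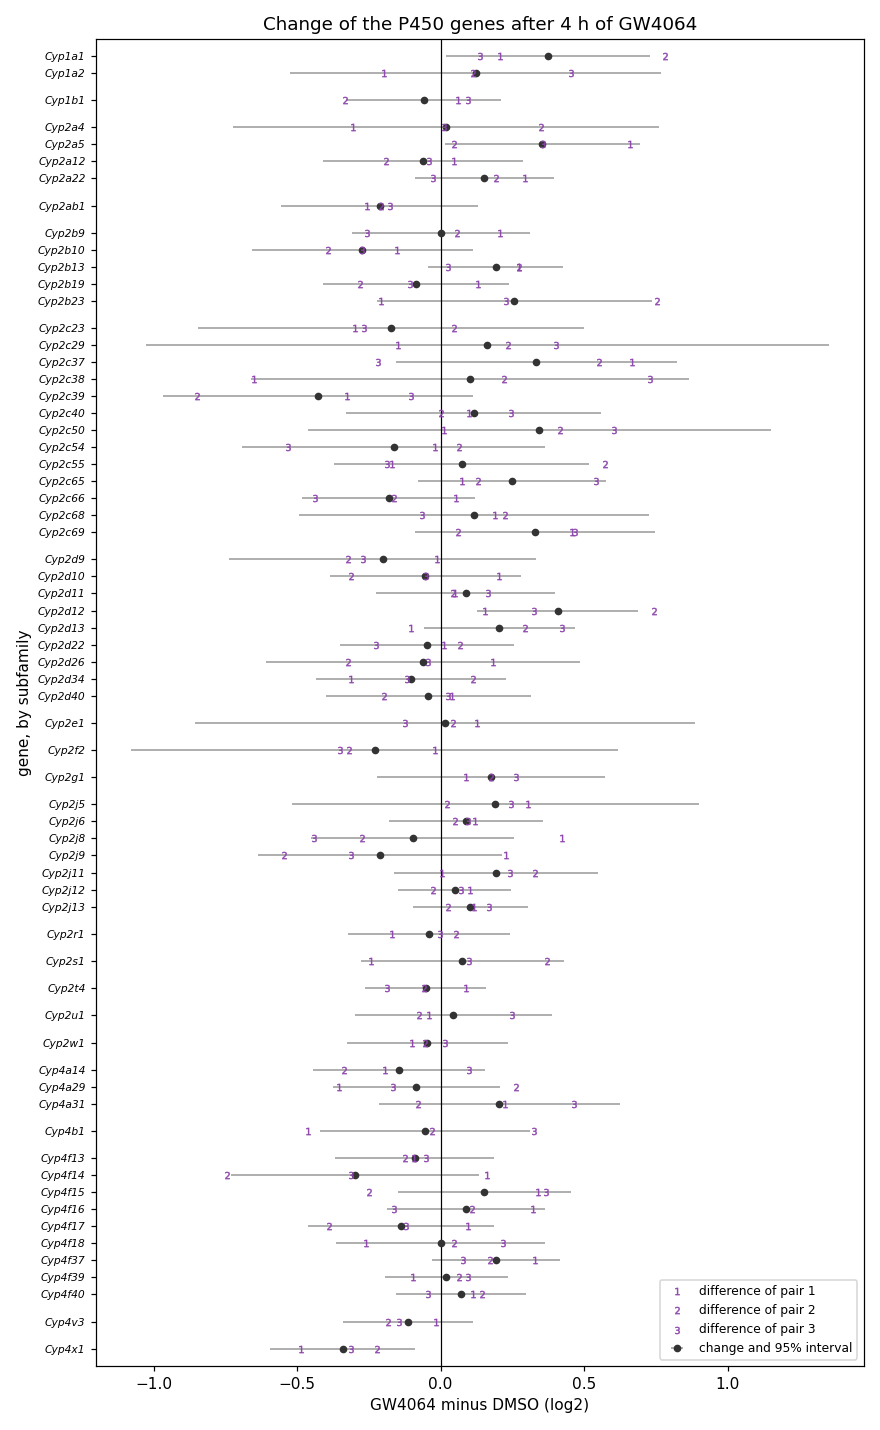
GW4064 minus DMSO change of each P450 gene on the log2 scale (black point) with its 95% interval from limma without a block (grey line), and the differences of same-numbered pairs 1, 2 and 3 (purple digits). The changes run from -0.43 to 0.41, and the interval is widest for Cyp2c29.

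For 62 of 65 members the 95% interval lay within 1 log2 unit of 0, so that a change of a full log2 unit in either direction falls outside it, beside 99.3% of all genes. The exceptions were Cyp2c29 with -1.03 to 1.35, Cyp2c50 with -0.46 to 1.15 and Cyp2f2 with -1.08 to 0.62. Within 0.5 log2 unit of 0 lay 34 members (52.3%), beside 84.7% of all genes. With the replicate block every member's interval lay within 1 log2 unit of 0, between -0.78 and 0.75 over all of them. For Cyp2c29 the blocked interval was -0.12 to 0.45, and for Cyp2e1 it was -0.19 to 0.23 against -0.85 to 0.89 without the block. Changes of low probe sets are compressed on this scale, which touches the 20 dim members.

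The width of the unblocked intervals came with a spread between replicate numbers that was seen in both groups alike. A limma F test of the replicate number, adjusted over all genes and added after the data were seen, called 7 members (10.8%), beside 1.07% of all genes. At an unadjusted p under 0.05 it found 29 members (44.6%), beside 14.8% of all genes. The mean of the GW4064 and DMSO arrays of a number ranged over a median of 0.36 log2 units in the members, beside 0.19 over all genes, and by more than 1 log2 unit in 7 members (6 of those called and Cyp2a4, named after its values were seen), against 0.712% of all genes. This range was larger than the size of the GW4064 change in 54 members (83.1%), beside 78.8% of all genes, so this share is near the background. The range is the largest minus the smallest number mean, and the change a single difference of group means. They are unlike measures, so equal size is no neutral point.

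The 7 genes called by number were Cyp2c23, Cyp2c29, Cyp2c50, Cyp2c68, Cyp2e1, Cyp2f2 and Cyp2j5, all of family 2. Cyp2c23, Cyp2c50, Cyp2c68 and Cyp2j5 are named after their values were seen. Cyp2c29, an epoxygenase of arachidonic acid and a CAR and PXR target, had 7.60, 7.55 and 6.13 in GW4064 arrays 1, 2 and 3, against 7.74, 7.32 and 5.73 in the DMSO arrays. Both arrays numbered 3 were low. The number means spanned 1.74 log2 units, or 3.34-fold (limma F test adjusted p = 0.0165), whereas the GW4064 change was 0.16 (SE 0.53).

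Cyp2c50, a close relative of Cyp2c29, had 3.87, 3.98 and 3.05 with GW4064, against 3.86, 3.56 and 2.45 with DMSO, and again both arrays numbered 3 were low (adjusted p = 0.0454). Cyp2c23, another epoxygenase gene, had 7.01, 6.74 and 5.99 with GW4064, against 7.30, 6.70 and 6.26 with DMSO (adjusted p = 0.0398). For Cyp2f2 the values were 8.23, 7.23 and 6.75 with GW4064, against 8.25, 7.55 and 7.10 with DMSO, so that the arrays numbered 1 were high and those numbered 3 low (adjusted p = 0.0230). Both arrays numbered 3 held the lowest level of their group in each of these 4 genes.

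The remaining 3 genes did not follow the same order of numbers. Cyp2e1 had 8.27, 6.91 and 7.14 with GW4064, against 8.14, 6.87 and 7.27 with DMSO, so both arrays numbered 1 were high, by more than 2-fold over the arrays numbered 2 (a range of number means of 2.49-fold, adjusted p = 0.0165). Cyp2j5, an epoxygenase gene, had 6.48, 7.39 and 7.27 with GW4064, against 6.18, 7.37 and 7.03 with DMSO, with both arrays numbered 1 low (adjusted p = 0.0273). Cyp2c68 had 5.68, 6.33 and 5.28 with GW4064, against 5.49, 6.10 and 5.34 with DMSO, with both arrays numbered 2 high and, as in the genes above, those numbered 3 low (adjusted p = 0.0434). In these 7 genes the same-numbered GW4064 and DMSO arrays differed by at most 0.60 log2 units, the value of Cyp2c50 in pair 3. The test that chose these genes favours close pairs, so this closeness is no separate result.

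**Figure D3:**
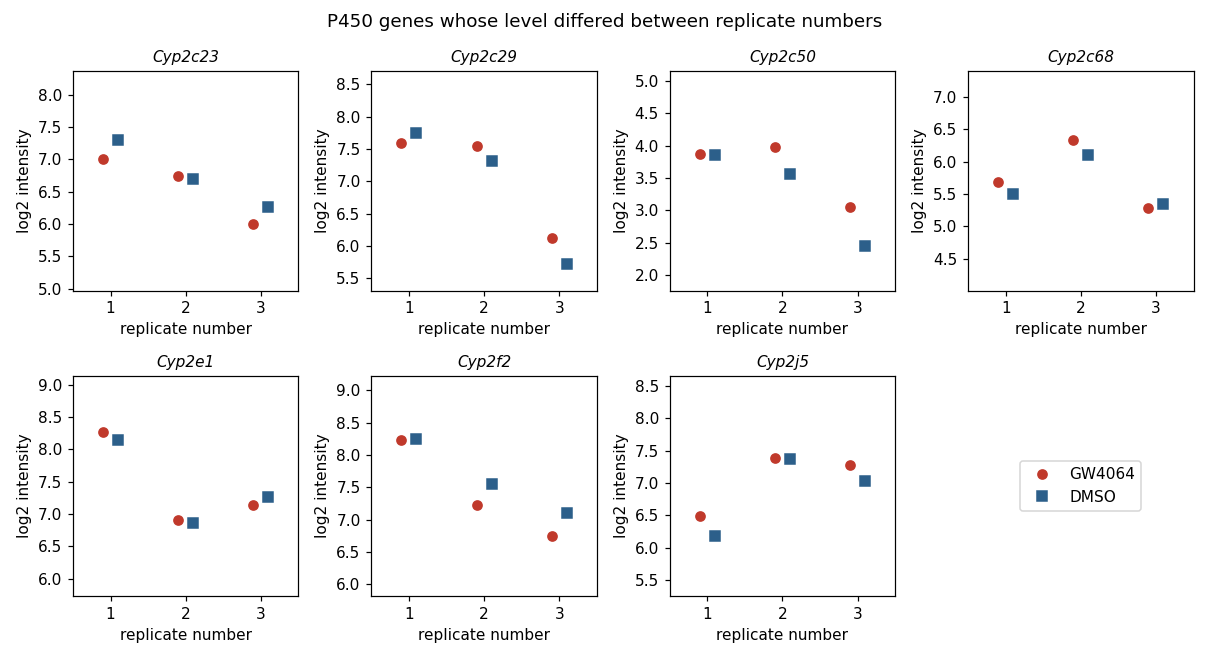
Level (log2 intensity) of the 7 P450 genes that differed between replicate numbers, in each GW4064 array (red circles) and DMSO array (blue squares) by replicate number, on axes of equal height. The genes were chosen by the F test of replicate number on these same arrays. That circles and squares of one number lie close and the numbers lie apart follows from this choice. Both arrays numbered 3 are lowest for Cyp2c23, Cyp2c29, Cyp2c50, Cyp2c68 and Cyp2f2.

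Cyp2c29, Cyp2c50 and Cyp2c68 lie in the same Cyp2c gene cluster. Numbers 1 and 2 had like levels for Cyp2c29 and Cyp2c50 and unlike levels for Cyp2c68. Their promoters are shown for that reason, as the 250 bases before the annotated start in RefSeq (build GRCm38.p6), 5′ to 3′ on the gene's strand, with matches to the searched motifs in capitals. They lie at chr19:39286835-39287084 on the plus strand, chr19:40089429-40089678 on the plus strand and chr19:39741102-39741351 on the minus strand.
Cyp2c29: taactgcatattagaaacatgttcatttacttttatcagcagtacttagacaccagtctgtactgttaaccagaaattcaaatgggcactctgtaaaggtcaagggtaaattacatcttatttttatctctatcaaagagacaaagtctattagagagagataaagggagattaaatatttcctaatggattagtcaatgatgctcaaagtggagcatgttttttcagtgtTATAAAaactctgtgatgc
Cyp2c50: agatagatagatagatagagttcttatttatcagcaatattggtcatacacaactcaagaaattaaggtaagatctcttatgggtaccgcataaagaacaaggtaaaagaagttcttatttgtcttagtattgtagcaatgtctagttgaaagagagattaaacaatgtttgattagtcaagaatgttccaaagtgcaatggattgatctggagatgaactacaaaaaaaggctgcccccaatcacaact
Cyp2c68: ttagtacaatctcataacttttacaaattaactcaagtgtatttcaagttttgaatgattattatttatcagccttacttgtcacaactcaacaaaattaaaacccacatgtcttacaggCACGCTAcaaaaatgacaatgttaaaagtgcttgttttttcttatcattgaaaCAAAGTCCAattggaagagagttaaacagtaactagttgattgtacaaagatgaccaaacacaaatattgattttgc

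The Cyp2c29 window holds TATAAA, the letters of a TATA box, at position -19, counted from the base before the start. The Cyp2c68 window holds CAAAGTCCA, a motif of the hepatocyte factor HNF4A, at position -77, and the AHR core motif TNGCGTG on the opposite strand at position -130. None of the searched motifs is in the Cyp2c50 window. RefSeq windows were found for 53 of the 65 members (59 windows), and motifs were searched on both strands. TATAAA was in 18 of the 59 windows of members, those of 18 genes, and in 12.4% of the 32851 windows of all genes. CAAAGTCCA was in those of 4 members, Cyp2c40, Cyp2c65, Cyp2c68 and Cyp2c69, and in 0.384% of all windows. TNGCGTG was in that of Cyp2c68 alone among members and in 4.10% of all windows. The inverted repeat of GGTCA and TGACC with 1 base between them, which FXR and its partner RXR bind, was in no member's window and in 0.0335% of all windows. A match is a run of letters and no evidence of binding.

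Over the 29 members at an unadjusted p under 0.05 in this test, the lowest number mean was that of number 3 in 17, of number 1 in 6 and of number 2 in 6. Over all genes at the same p, number 3 was lowest in 41.7%. The highest mean was that of number 1 in 14 members, of number 2 in 13 and of number 3 in 2, whereas number 3 was highest in 35.1% of such genes. By family, 25 of 47 family 2 genes, 3 of 15 family 4 genes and 1 of 3 family 1 genes passed this p. In the Cyp2c subfamily 9 of 13 did.

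Markers of cell types moved between numbers too. Cd68, a macrophage lysosomal gene, had 9.86, 8.46 and 9.93 in GW4064 arrays 1, 2 and 3, against 9.63, 8.53 and 10.02 in the DMSO arrays (limma F test adjusted p = 0.0141). It was low in both arrays numbered 2, where Cyp2e1 was low as well and Cyp2c68 high. The mean over all 5 Kupffer cell markers was 4.86, 4.75 and 4.96 for numbers 1, 2 and 3, no other marker of that list was called, and its defining genes Adgre1 and Clec4f averaged 2.92 and 3.66 with GW4064, against 2.99 and 3.90 with DMSO, below the median of all genes. Tat, a hepatocyte marker that glucocorticoids induce, had 10.10, 10.16 and 10.91 with GW4064, against 10.21, 10.37 and 11.23 with DMSO, and was high where Cyp2c29, Cyp2c50 and Cyp2c23 were low (adjusted p = 0.0288). Alb, the albumin gene, had number means of 12.86, 12.81 and 12.83. The part of these markers in the P450 differences was not tested.

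The call by number depended on single arrays. It fell to 0 members without GW4064 replicate 2, GW4064 replicate 3 or DMSO replicate 3, and to 1 without DMSO replicate 2 or without pair 3. The share of all genes called fell as well, to between 0.0361% and 0.221% in those settings. With an array or pair left out, 21 to 33 members had an unadjusted p under 0.05, against 29 with all arrays. The shares of all genes at that p in those settings are not given here.

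**Figure D4:**
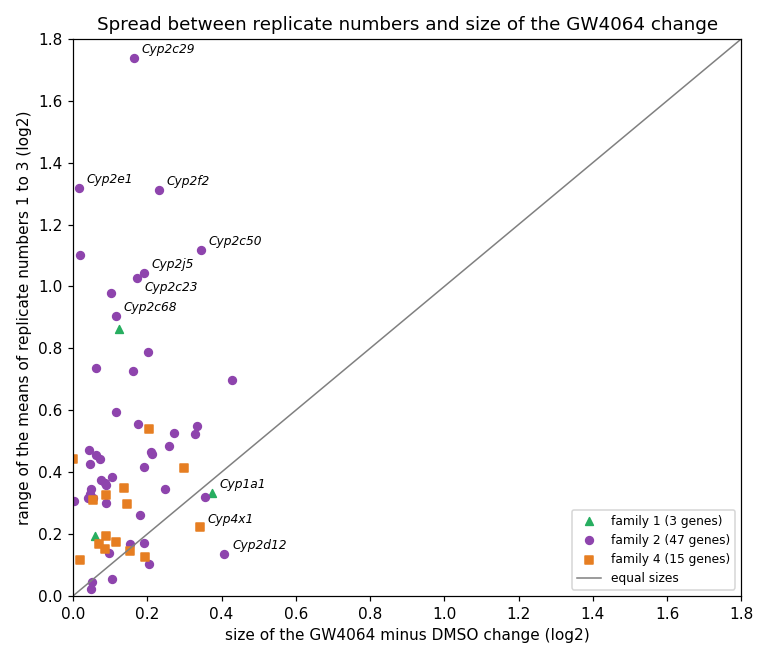
Range of the 3 number means of each P450 gene (vertical axis, log2) against the size of its GW4064 minus DMSO change (horizontal axis, log2), with the line of equal sizes. The axes are unlike measures, so this line is no neutral point. In 54 of 65 genes (83.1%, beside 78.8% of all genes) the point lies above the line, highest for Cyp2c29 at 1.74. Cyp2d12, Cyp4x1 and Cyp1a1 lie below it.

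Around the P450 genes, the heme and electron supply genes showed no call. Of 17 listed, 15 were measured, 7 had a change above 0 and 0 rose or fell at a limma adjusted p under 0.05, with a median of -0.01. The reductase gene Por was not among the 15 measured, so its level and change are not known here. Alas1 encodes the enzyme that starts heme synthesis. Its levels were 8.99, 9.30 and 8.92 with GW4064, against 8.49, 8.79 and 8.59 with DMSO (log2 change 0.44, SE 0.13 without and 0.08 with the block, limma adjusted p = 0.689 and 0.247). All 3 GW4064 arrays of Alas1 lay above its DMSO arrays. Hmox1, whose enzyme breaks heme down, had the highest change of the list, with 9.02, 9.51 and 8.81 with GW4064, against 8.50, 8.93 and 8.23 with DMSO (log2 change 0.56, SE 0.21 without and 0.08 with the block, limma adjusted p = 0.851 and 0.123). Its groups overlapped, while the pairs differed by 0.53, 0.58 and 0.58.

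Among the 19 receptors and regulators of these families, 2 rose and 0 fell, with and without the block. Nr1i2, which encodes PXR, had 8.44, 8.71 and 8.58 with GW4064, against 6.38, 7.31 and 6.87 with DMSO (log2 change 1.72, SE 0.20, limma adjusted p = 0.0352). Nr0b2, the corepressor SHP, rose by 2.37 (SE 0.12, adjusted p = 1.17e-04). In the same arrays the PXR and CAR targets Cyp2b10 and Cyp2c29 had log2 changes of -0.27 and 0.16, neither called. Nr1h4, the gene of FXR itself, had 7.13, 7.08 and 6.94 with GW4064, against 7.81, 7.78 and 7.73 with DMSO (log2 change -0.72, SE 0.09, limma adjusted p = 0.0535, and 0.0618 with the block). It had the lowest change of the list and missed the threshold narrowly, with every pair lower and no overlap of the groups. Hnf4a, a central hepatocyte transcription factor, had a log2 change of 0.55 (SE 0.12, limma adjusted p = 0.393, and 0.151 with the block), also without overlap. The CAR gene Nr1i3 had 0.12 (SE 0.19), Ahr 0.03 (SE 0.15) and Ppara -0.48 (SE 0.12, limma adjusted p = 0.601, and 0.340 with the block).

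The other target lists behaved likewise. Of the 4 measured AHR targets outside the P450 families, 3 had a change above 0 and none was called. Of 13 measured PPARalpha targets 5 were above 0 with none called, and of 11 measured partners in eicosanoid metabolism 4 were above 0 with none called. The PPARalpha target Pdk4 was the only gene of the 5 pathway lists called between numbers, with means of 6.16, 7.09 and 7.02 for numbers 1, 2 and 3 (limma F test adjusted p = 0.0231). Its arrays numbered 1 were low, as they were for Cyp2j5. The 32 genes of other P450 families had a median log2 change of 0.03, 0 calls without the block and 1 with it, Cyp3a25.

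A few members rest on a choice of probe set. Cyp2c29, Cyp2c55 and Cyp2f2 each have a second, dimmer probe set. The second set of Cyp2c29 had means of 1.89 with GW4064 and 1.82 with DMSO, at the floor of the arrays. For Cyp2f2 the second set gave 3.99 with GW4064 and 3.86 with DMSO, a difference of 0.13 where the main set gave -0.23, so the sign of Cyp2f2 is not shared by its probe sets. By array, this set had 3.95, 3.98 and 4.04 with GW4064, against 3.95, 3.93 and 3.70 with DMSO. The second set of Cyp2c29 had 2.11, 1.73 and 1.83 with GW4064, against 1.87, 1.82 and 1.77 with DMSO. Neither dim set showed the spread between numbers of its main set, so both number calls rest on the main sets. Many Cyp2c, Cyp2d, Cyp2j and Cyp4a genes have close paralogs, and how far a probe set also binds a paralog's transcript was not tested.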

How the data were processed

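RNA of 6 hepatocyte samples was hybridised to Affymetrix MoGene-2_0-st arrays, 1 colour each, per the labels' protocols. Each deposited value is a log2 intensity of a probe set, made by the authors with RMA and Partek per the submitters' processing notes, without versions. The log base follows from the range of values and from RMA's usual output. Groups and replicate numbers come from the sample titles. The table holds 41345 probe sets, 23521 of them with 1 gene symbol in the platform annotation, which gave 22180 genes.

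GW4064 minus DMSO was fitted with limma 3.58.1 in R 4.3.3 over all genes, with Benjamini-Hochberg adjustment, no block and no filter. With 3 arrays a group, exact permutation tests have a smallest two-sided p of 0.1. Deviations of same-numbered arrays from their group means correlated by 0.26, 0.34 and 0.45, all above the set minimum of 0.1, so same-numbered arrays are shown as pairs. The main fit nevertheless leaves the pairing out. Treatment SEs, intervals and p-values come from it unless the block is named. The blocked fit is given where it changes a count and for some genes. The F test of replicate number was added after the data were seen. Fits were tested on simulated data. Members and lists were chosen with earlier results of these data known. Named members were the brightest of each subfamily in DMSO, the 8 brightest of all members, those past an unadjusted p of 0.05 or an adjusted p of 0.05 with the block, and a preset list of receptor-responsive genes. Other genes named were Abcb11, Nr0b2 and those of the gene lists past an adjusted p of 0.05 for the treatment, while Alas1, Hmox1, Nr1h4, Hnf4a, Nr1i3, Ahr, Ppara, Pdk4, Cd68, Tat, Alb, Adgre1, Clec4f and Cyp3a25 were chosen after their values were seen. Alternatives were quantile normalization, median centring, filters at the 25th percentile and the median of gene means, the mean of a gene's probe sets, a trended robust prior, the replicate block, and leaving out each array or pair. Motifs and sequences come from RefSeq tables of GRCm38.p6, and the array's build is not given in the sources used here.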

Additional observations from a re-analysis of the deposited data

How the results depend on the processing

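The count of 0 P450 genes called for GW4064 held in all 16 alternatives, and no named member passed the adjusted threshold in any of them. The 29 named members kept the sign of their change in the 7 settings with all 6 arrays, as far as a filter left them in. With arrays or pairs left out 17 of them changed sign at least once. The lowest and highest log2 changes over those 9 settings were -0.23 and 0.32 for Cyp1a2, -0.15 and 0.0781 for Cyp1b1, -0.19 and 0.0765 for Cyp2a12, -0.12 and 0.15 for Cyp2b9, -0.44 and 0.64 for Cyp2c29, -0.15 and 0.0924 for Cyp2d22, -0.35 and 0.10 for Cyp2d26, -0.40 and 0.37 for Cyp2e1, -0.64 and 0.10 for Cyp2f2, -0.14 and 0.0295 for Cyp2r1, -0.0860 and 0.25 for Cyp2s1, -0.12 and 0.0155 for Cyp2t4, -0.11 and 0.18 for Cyp2u1, -0.14 and 0.0499 for Cyp2w1, -0.0054 and 0.40 for Cyp4a31, -0.24 and 0.15 for Cyp4b1, and -0.17 and 0.0026 for Cyp4f13. The other 12 kept their sign, between 0.17 and 0.50 for Cyp1a1, 0.20 and 0.53 for Cyp2a5, -0.34 and -0.10 for Cyp2ab1, -0.43 and -0.13 for Cyp2b10, 0.13 and 0.27 for Cyp2b13, 0.24 and 0.53 for Cyp2d12, 0.03 and 0.33 for Cyp2g1, 0.01 and 0.17 for Cyp2j6, -0.27 and -0.02 for Cyp4a14, -0.54 and -0.08 for Cyp4f14, -0.19 and -0.06 for Cyp4v3, and -0.41 and -0.24 for Cyp4x1. Genes called over the whole array numbered 11, 18 with the replicate block, 17 with the trended robust prior and 2 to 5 with arrays or pairs left out. Members at an unadjusted p under 0.05 numbered 4, 9 with the replicate block, 2 and 1 with the filters at the 25th percentile and the median, which keep 45 and 27 members, and 3 to 8 with arrays or pairs left out. The shares of all genes were 5.66%, 9.13%, 5.76%, 5.82% and 3.93% to 6.01% in the same order. Members higher with GW4064 numbered 36, 23 and 11 with the same filters, and 27 to 41 with arrays or pairs left out. The median change of members was 0.02, or -0.05 with the filter at the median, and -0.04 to 0.08 with arrays or pairs left out. Members that differed between replicate numbers numbered 7, 11 with the filter at the median (where 6.03% of all genes did), 17 with the trended robust prior (8.37% of all genes) and 0 to 10 with arrays or pairs left out. At an unadjusted p they numbered 29, 18 of the 27 left by the filter at the median, and 21 to 33 with arrays or pairs left out. With all 6 arrays and no filter 14.8% of all genes passed that p, and 20.1% of those at or above the median. The shares in the other settings are not given here. The cause of these differences was not tested beyond the number of genes and arrays each setting keeps. The signal over background is not given in the deposited table, so a change in the 20 dim members may be understated.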
